A study of Mus musculus with 4 samples.

Results

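Myc is one gene of 2701 in the differential expression table of this series, taken by its Ensembl identifier (ENSMUSG00000022346, GENCODE symbol Myc). The series compared RNA from the pyloric stomach of C57BL/6 mice of 2 genotypes, with 2 libraries each, collected 8 weeks after tamoxifen. WT denotes Lats1fl/fl;Lats2fl/fl mice, which carry the floxed genes and no Cre. Lats1/2iΔLgr5 denotes Lats1fl/fl;Lats2fl/fl;Lgr5-CreER mice, in which Cre, driven from Lgr5 and switched on by tamoxifen, deletes both kinase genes of the Hippo pathway in Lgr5-positive gland cells, and so in the cells these give rise to. Both groups carry both floxed genes and both are on the 8-week tamoxifen schedule, and the Cre allele is present in one group alone. RNA came from cryosections, which hold recombined and unrecombined epithelium with any other cells of the section. Fewer cells of a type and less RNA per cell cannot be told apart in such material. The labels do not say how many mice each library holds, so p-values measure the spread between libraries.

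MYC is a transcription factor of the basic helix-loop-helix leucine zipper family that binds DNA as a dimer with MAX, with highest affinity for the E-box CACGTG. Its best known targets make ribosomes, nucleotides and other material for growth, and proteins of the MXD family compete with it for MAX. In gut epithelium MYC is a known target of Wnt signalling, and YAP with TEAD factors has been reported to raise it. The table asks which transcripts differ once the kinases that restrain YAP and TAZ are lost, and Myc is one of the candidates such a comparison would follow.

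The table is a list of genes that had already been called different: its largest adjusted p is 0.05. An estimated 13137 genes were tested by the authors, a number inferred from the deposited p and adjusted p, and the 2701 listed are 20.6% of them. Below, "rose" and "fell" are used of calls in the authors' deposited table, and a gene without a row is not described. Of the listed genes 42.9% rose and 57.1% fell. Levels are counts divided by the authors' size factors (normalized counts), and edgeR, run on those counts, gave the log2 fold changes and their standard errors (SE). Listed genes held 13413629 to 17689207 counts per library. Lats1, the 1 targeted gene with a row, stood at 2152 and 1974 normalized counts in WT 1 and 2 and at 943 and 1129 in Lats1/2iΔLgr5 1 and 2, which matches the labels in every library. Of 18 pyloric epithelium markers, 9 had rows (50%, against 20.6% of all genes tested). Cdh1, which encodes E-cadherin, stood at 44796 and 45287 normalized counts in WT and at 30285 and 32556 in Lats1/2iΔLgr5. The summed normalized counts of these 9 markers were 4872900 and 5253020 in WT and 2716590 and 2337320 in Lats1/2iΔLgr5, most of them from the gastrokines Gkn1 and Gkn2. With TMM factors, another scaling of the libraries, 3 of the 9 kept a lower edgeR call, and the adjusted p of Cdh1 was 0.293.

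Long-known MYC targets in the table include genes of ribosome biogenesis and of nucleotide synthesis, and the E-boxes near their starts are shown here as the sequence that MYC and MAX recognise. The letters come from RefSeq windows on GRCm38.p6 that run from 250 bases before a transcript's start to 50 after it. Of 27025 genes with a window, 8.09% hold CACGTG, which reads the same on both strands. Among listed genes with a window it was present in 127 of 925 that rose (13.7%) and in 126 of 1188 that fell (10.6%). Of the listed ribosome biogenesis genes 7 of 35 with a window held it, and of the nucleotide and one-carbon genes 4 of 18. Lists that mostly fell held it too, with 2 of 5 glycolysis, lactate and glutamine genes and 2 of 6 genes reported as repressed by MYC. Proliferation markers, which rose, had it in 0 of 10. Of the 10 genes most like Myc, named below, 1 of 7 with a window had it. A match is a description of the letters and no measure of binding. Myc itself has no entry in these windows. The sites are written 5′ to 3′ on the strand of the gene, with the E-box in capitals and 12 bases on each side.
Nop2, an rRNA methyltransferase (chr6:125131811-125131840, + strand, 60 bases before the start): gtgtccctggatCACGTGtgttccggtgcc
Wdr43, a small-subunit processome protein (chr17:71616220-71616249, + strand, base 18 after the start): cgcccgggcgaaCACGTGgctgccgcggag
Pes1, a factor of large-subunit maturation (chr11:3963965-3963994, + strand, base 3 after the start): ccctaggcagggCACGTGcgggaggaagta
Nle1, a factor of large-subunit maturation (chr11:82908355-82908384, - strand, base 24 after the start): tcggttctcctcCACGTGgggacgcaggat
Impdh2, the guanine nucleotide pathway dehydrogenase (chr9:108560314-108560343, + strand, 110 bases before the start): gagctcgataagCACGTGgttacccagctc
Atic, which completes purine ring synthesis (chr1:71557137-71557166, + strand, 7 bases before the start): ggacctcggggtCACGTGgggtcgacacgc
Paics, an earlier enzyme of purine synthesis (chr5:76951087-76951116, + strand, 203 bases before the start): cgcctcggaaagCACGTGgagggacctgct
Tyms, thymidylate synthase (chr5:30073669-30073698, - strand, 61 bases before the start): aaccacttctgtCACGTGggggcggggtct
The E-boxes of Mybbp1a, Utp20 and Grwd1, which start 41, 38 and 35 bases after the start, are not printed because the window ends within 12 bases of them. In the 8 sites shown the first C of the E-box lies between 203 bases before and 24 bases after the start used by RefSeq.

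Myc lies on chromosome 15 at 61985341 to 61990374 (GRCm38, + strand), with 2717 bases of exon and no other GENCODE gene overlapping it. Reads assigned to it numbered 222 and 230 in WT 1 and 2 and 598 and 1049 in Lats1/2iΔLgr5 1 and 2. Divided by the size factors, these gave 280 normalized counts in WT 1, 254 in WT 2, 541 in Lats1/2iΔLgr5 1 and 820 in Lats1/2iΔLgr5 2. Both Lats1/2iΔLgr5 libraries lay above both WT libraries, as they would for almost any gene in the table, since 99.9% of listed genes had groups that did not overlap. The mean rose from 267 ± 18.7 to 681 ± 197 (SD, n = 2), a 2.55-fold difference.

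The log2 fold change of Myc was 1.35 ± 0.27 (SE), with an edgeR quasi-likelihood adjusted p of 0.0127. The authors' deposited table gives a shrunken log2 fold change of 1.22 and an adjusted p of 2.85e-04. Adjustment in edgeR covers genes already selected for a difference: 42.9% of the 2700 tested were called higher and 57.1% lower, so that a call separates Myc from hardly any listed gene. An exact permutation test of 2 libraries against 2 cannot go below a two-sided p of 0.333. Without Lats1/2iΔLgr5 replicate 2 the log2 fold change of Myc was 1.02 and its edgeR adjusted p 0.0715. In that fit only 4 listed genes were called higher and 1 lower, so every other gene named here that had an edgeR call lost it as well.

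The Lats1/2iΔLgr5 libraries differed from each other in Myc by more than counting error. The 95% Poisson intervals, which cover counting error only, ran from 499 to 587 normalized counts in Lats1/2iΔLgr5 1 and from 771 to 871 in Lats1/2iΔLgr5 2. Those of WT 1 (245 to 320) and WT 2 (222 to 289) overlapped. Myc was thus 1.51-fold higher in Lats1/2iΔLgr5 2 than in Lats1/2iΔLgr5 1 and 1.10-fold higher in WT 1 than in WT 2. Its order over the libraries was WT 2, WT 1, Lats1/2iΔLgr5 1, Lats1/2iΔLgr5 2 from lowest to highest, and the place of the WT libraries in that order is within counting error.

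By base mean Myc ranked 1913 of 2701, with 29.2% of listed genes below it. Per kilobase of exon, 39.5% of the 2698 genes with an annotated length had a lower level. The size of its difference was above the middle of the genes that rose: 68.5% of these 1158 genes had a smaller log2 fold change, and their median was 1.09. Its neighbours in base mean were Lsm3, an RNA-binding protein of the spliceosome, and Mettl16, an RNA methyltransferase. These 2 genes, at nearly the same depth, rose by 0.64 ± 0.21 and 0.75 ± 0.19 (SE) on the log2 scale.

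Of the 12 other genes of the MYC network on the list, 3 had rows, 1 that rose and 2 that fell. The share listed, 25%, is to be read beside the 20.6% of all genes tested. Mycl, a paralogue of Myc, stood at 46.7 and 47.4 normalized counts in WT and at 168 and 92.2 in Lats1/2iΔLgr5 1 and 2. It was higher in both Lats1/2iΔLgr5 libraries, but its higher library was the one in which Myc was lower. Its log2 fold change of 1.47 ± 0.44 (SE) was 0.97 without Lats1/2iΔLgr5 replicate 1. Per kilobase of exon its mean level was 11.7 in WT and 32.3 in Lats1/2iΔLgr5, against 98.2 and 251 for Myc.

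Both MXD family members with a row moved against Myc. Mxd1, which encodes a MAX partner associated with differentiating cells, stood at 19876 and 29815 normalized counts in WT 1 and 2 and at 11688 and 6529 in Lats1/2iΔLgr5 1 and 2. It fell 2.73-fold, with a log2 fold change of -1.45 ± 0.34 (SE). Mxi1, which encodes another MAX partner and antagonist of MYC, stood at 1285 and 1512 in WT and at 852 and 506 in Lats1/2iΔLgr5, a log2 fold change of -1.04 ± 0.28. In both genes the 4 libraries stood in exactly the reverse of the order of Myc, with Lats1/2iΔLgr5 2 lowest and WT 2 highest. Of the listed genes that fell, 52.9% had that reversed order, so it is common among them. With TMM factors in place of the authors' the edgeR adjusted p of Mxi1 was 0.0719, short of the threshold, and that of Mxd1 0.0270.

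Per kilobase of exon the mean level of Mxd1 went from 3513 in WT to 1288 in Lats1/2iΔLgr5, and that of Mxi1 from 205 to 99.5. Mxd1 was therefore the most abundant of the 4 MYC network genes with a row in every library, and Mycl the least. The levels of Myc and Mxi1 changed places: per kilobase, Mxi1 was the higher in both WT libraries and Myc in both Lats1/2iΔLgr5 libraries. By normalized count Mxi1 was also the higher in Lats1/2iΔLgr5 1 (852 against 541), and Myc only in Lats1/2iΔLgr5 2 (820 against 506). The change of places in Lats1/2iΔLgr5 1 thus depends on the exon length, which counts all annotated exons.

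**Figure D1:**
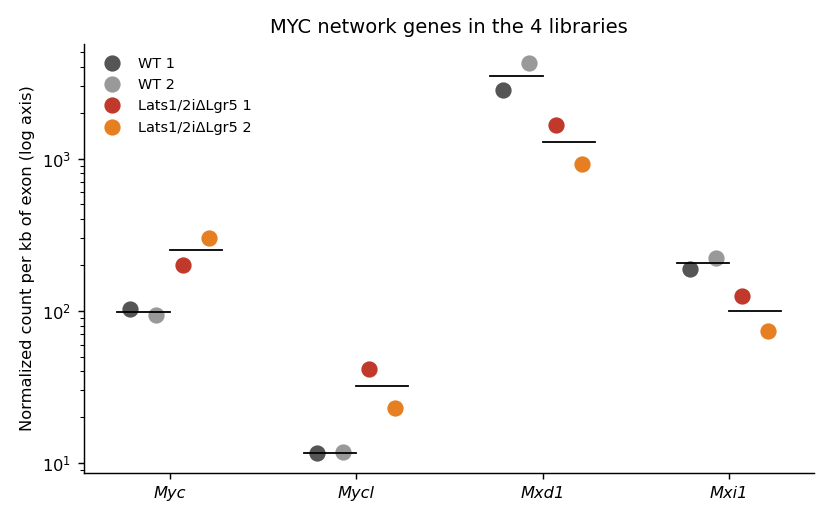
Normalized count per kilobase of exon (log axis) of Myc, Mycl, Mxd1 and Mxi1; each point is 1 library and each bar the mean of 2. Myc and Mycl are higher in both Lats1/2iΔLgr5 libraries and Mxd1 and Mxi1 lower, and of the 4 genes Myc alone has Lats1/2iΔLgr5 2 above Lats1/2iΔLgr5 1.

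Genes whose products bind MYC or set its stability had 8 of 28 members listed, 7 higher and 1 lower, with a median log2 fold change of 0.87 against -0.50 over all listed genes. The share listed, 28.6%, is to be read beside the 20.6% of all genes tested. Ruvbl2 and Ruvbl1, paired ATPases of chromatin complexes that MYC recruits, rose 2.71-fold and 2.54-fold. Ruvbl1 stood at 245 and 222 normalized counts in WT 1 and 2 and at 556 and 627 in Lats1/2iΔLgr5 1 and 2, the same order as Myc. Wdr5, a chromatin scaffold that helps MYC reach its targets, rose 1.84-fold and Actl6a, an actin-related subunit of such complexes, 1.81-fold. The member that fell was Usp28, which encodes a deubiquitinase that counters MYC turnover, by a log2 fold change of -0.73 ± 0.19 (SE). Its edgeR adjusted p with TMM factors was 0.150, and it was chosen after its values were seen.

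Lists for pathways reported to act on Myc, which hold pathway members and their targets, were mixed. Of 20 genes of the YAP and TEAD list, 11 had rows (55%, against 20.6% of all genes tested). Of these, 9 were higher and 2 lower, 1 of the latter being the deleted Lats1. The other was Areg, at 4272 and 7575 normalized counts in WT 1 and 2 and 2266 and 2238 in Lats1/2iΔLgr5 1 and 2. Its log2 fold change was -1.40 ± 0.28 (SE) and its edgeR adjusted p with TMM factors 0.0156. Areg was chosen after its values were seen. The YAP reporter Ccn2, a secreted matrix protein, stood at 78.2 and 67.3 normalized counts in WT 1 and 2 and at 341 and 397 in Lats1/2iΔLgr5 1 and 2. Its order over the libraries was that of Myc, as in 5 of the 11 and in 40.2% of all listed genes that rose. Ccn2 differed by more than Myc, with a log2 fold change of 2.34 ± 0.27 (SE). Ajuba, whose LIM-domain product binds LATS kinases, rose by 2.66 ± 0.28 and Ptpn14, a phosphatase gene induced by YAP, by 1.65 ± 0.29, but in Ajuba Lats1/2iΔLgr5 1 was the higher library.

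Of 18 genes of the Wnt list only 3 had rows, 16.7% against 20.6% of all genes tested. Tcf7l2, which encodes the main TCF factor of gut epithelium and a known activator of Myc, stood at 955 and 968 normalized counts in WT and at 527 and 463 in Lats1/2iΔLgr5. It fell 1.94-fold, a log2 fold change of -0.96 ± 0.18 (SE). Lgr5, a Wnt target and the locus named in the Cre allele, also fell, from 58.0 and 100 normalized counts in WT 1 and 2 to 25.4 and 25.8, and its edgeR adjusted p with TMM factors was 0.0631. Znrf3, a Wnt feedback inhibitor, rose 1.96-fold. An effect of the allele on Lgr5 counts and one of the deletion cannot be told apart.

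Of 24 other factors reported to act on the Myc gene 8 had rows (33.3%, against 20.6% of all genes tested). Of these 8, 4 rose and 4 fell. With TMM factors 1 of the 4 that fell kept a lower edgeR call, and all 4 that rose kept a higher one. Foxm1 and E2f1, cell cycle transcription factors, rose 2.97-fold and 2.76-fold and Notch1, a Notch receptor, 1.98-fold. The epithelial ETS factor Elf3 went the other way, from 13505 and 15355 normalized counts in WT to 8853 and 8894 in Lats1/2iΔLgr5. None of the 8 shared the order of Myc over the libraries.

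All 41 listed genes of ribosome biogenesis rose, of 46 on the list (89.1% listed, against 20.6% of all genes tested and 8.81% tested and higher). Their median log2 fold change was 1.21, from 0.64 in Nip7 upwards, and 13 of them rose by more than Myc at 1.35. Without a single library in turn the median ran from 0.947 (Lats1/2iΔLgr5 replicate 2 left out) to 1.42 (Lats1/2iΔLgr5 replicate 1 left out). Fbl, the enzyme that 2′-O-methylates rRNA, stood at 1061 and 1079 normalized counts in WT 1 and 2 and at 2484 and 2911 in Lats1/2iΔLgr5 1 and 2. Polr1a, the largest subunit of RNA polymerase I, stood at 347 and 277 in WT and at 828 and 1002 in Lats1/2iΔLgr5. Tcof1, a nucleolar factor of rRNA transcription, rose 2.92-fold.

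Mybbp1a, a nucleolar protein first found as a binder of MYB, had the second largest difference of the list, after Rcl1. It stood at 885 and 730 normalized counts in WT 1 and 2 and at 2471 and 3820 in Lats1/2iΔLgr5 1 and 2, a log2 fold change of 1.96 ± 0.25 (SE). Its library order was that of Myc, and Lats1/2iΔLgr5 2 exceeded Lats1/2iΔLgr5 1 by 1.55-fold, close to the 1.51-fold of Myc. Of the 8 genes whose E-boxes are printed above, 4 are of ribosome biogenesis. Their log2 fold changes were 1.21 (Nop2), 1.30 (Wdr43), 0.84 (Pes1) and 1.26 (Nle1). All 4 shared the order of Myc, as did 33 of all 41 listed ribosome biogenesis genes and 40.2% of listed genes that rose. The 4 of nucleotide synthesis had log2 fold changes of 1.30 (Impdh2), 1.03 (Atic), 1.41 (Paics) and 0.57 (Tyms), and Tyms did not share that order, with WT 2 above WT 1 and Lats1/2iΔLgr5 1 above Lats1/2iΔLgr5 2.

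Nucleotide and one-carbon synthesis had 21 of 26 members listed (80.8%, against 20.6% of all genes tested). All of them rose, with a median log2 fold change of 1.25. Ctps, which makes CTP, stood at 266 and 210 normalized counts in WT 1 and 2 and at 904 and 1207 in Lats1/2iΔLgr5 1 and 2, a log2 fold change of 2.15 ± 0.25 (SE). The folate enzymes Mthfd1 and Shmt1 rose by 1.77 ± 0.17 and 1.62 ± 0.19, and Gart, a multifunctional enzyme of purine synthesis, by 1.43 ± 0.17. Among these genes, 11 of 21 shared the order of Myc, against 40.2% of all listed genes that rose. Of 10 polyamine genes only Srm, spermidine synthase, had a row: it stood at 324 and 165 in WT 1 and 2 and at 503 and 752 in Lats1/2iΔLgr5 1 and 2. Its log2 fold change was 1.36 ± 0.39.

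Of 15 translation factors 6 were listed and rose (40%), with a median log2 fold change of 0.96. Of 17 mitochondrial biogenesis genes and chaperones 8 were listed and rose (47.1%), with a median of 0.58. Among all genes tested 8.81% were listed and higher. Prmt3, the methyltransferase of a small-subunit ribosomal protein, rose by 1.10 ± 0.29 (SE) and Eif2b3, a subunit of the exchange factor of translation initiation, by 1.15 ± 0.31. Pprc1, a coactivator of mitochondrial biogenesis, stood at 435 and 320 normalized counts in WT 1 and 2 and at 708 and 972 in Lats1/2iΔLgr5 1 and 2. The mitochondrial chaperone Hspa9 rose by 0.51 ± 0.12, a smaller difference than in any of the 41 ribosome biogenesis genes.

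Of 19 genes of glycolysis, lactate and glutamine, which include well-known MYC targets, 6 had rows (31.6%, against 20.6% of all genes tested). Of these, 5 were lower and 1 higher, to be read beside the 57.1% of listed genes that fell. Of the 5, only Pfkp kept a lower call with TMM factors. Ldha, lactate dehydrogenase A and a classical MYC target, stood at 34477 and 41638 normalized counts in WT 1 and 2 and at 23569 and 22295 in Lats1/2iΔLgr5 1 and 2, a log2 fold change of -0.73 ± 0.16 (SE). Aldoa, an aldolase, fell by 0.60 ± 0.13 and the glucose transporter gene Slc2a1 by 0.72 ± 0.19. These calls depend on the scale: with TMM factors, which add 0.36 to the median log2 fold change, the edgeR adjusted p was 0.0556 for Ldha, 0.115 for Aldoa and 0.140 for Slc2a1. Pfkp, a phosphofructokinase, had -0.97 ± 0.20 and a TMM adjusted p of 0.0268. The 1 member that rose was the glutamine transporter gene Slc1a5, with 0.85 ± 0.27. Leaving out WT replicate 1 gave 1.29 for it, and leaving out WT replicate 2 gave 0.52. It was chosen after its values were seen.

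Among cell cycle genes that MYC binds, 12 of 18 were listed (66.7%, against 20.6% of all genes tested). Of these, 11 were higher and 1 lower, and their median log2 fold change was 0.85. Cdk4, a cyclin-dependent kinase and classical MYC target, stood at 926 and 769 normalized counts in WT 1 and 2 and at 1951 and 1812 in Lats1/2iΔLgr5 1 and 2. Ccnd1, its cyclin partner, rose by 0.86 ± 0.13 (SE) and the helicase subunit gene Mcm5 by 2.07 ± 0.32. The lower member was Cdc25a, a phosphatase that activates cyclin-dependent kinases, with -0.56 and a TMM adjusted p of 0.222; it was chosen after its values were seen. Only 1 of the 12 shared the order of Myc, against 40.2% of all listed genes that rose.

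Genes reported as repressed by MYC had 8 of 23 members listed, 6 lower and 2 higher, and a median log2 fold change of -0.70. With TMM factors 3 of the 6 kept a lower edgeR call, and the 2 that rose kept a higher one. Cdkn1a, the cell cycle inhibitor p21, stood at 14384 and 19666 normalized counts in WT 1 and 2 and at 7356 and 6875 in Lats1/2iΔLgr5 1 and 2, a log2 fold change of -1.26 ± 0.19 (SE). Ndrg1, a growth-arrest gene named for its repression by MYCN, fell 2.68-fold and its relative Ndrg4 1.74-fold, the latter with an edgeR adjusted p of 0.0714 with TMM factors. Thbs1, which encodes the angiogenesis inhibitor thrombospondin and is also induced by YAP, rose 3.14-fold. The share of the list with a row, 34.8%, is to be read beside the 20.6% of all genes tested. The share lower is to be read beside the 57.1% of listed genes that fell.

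**Figure D2:**
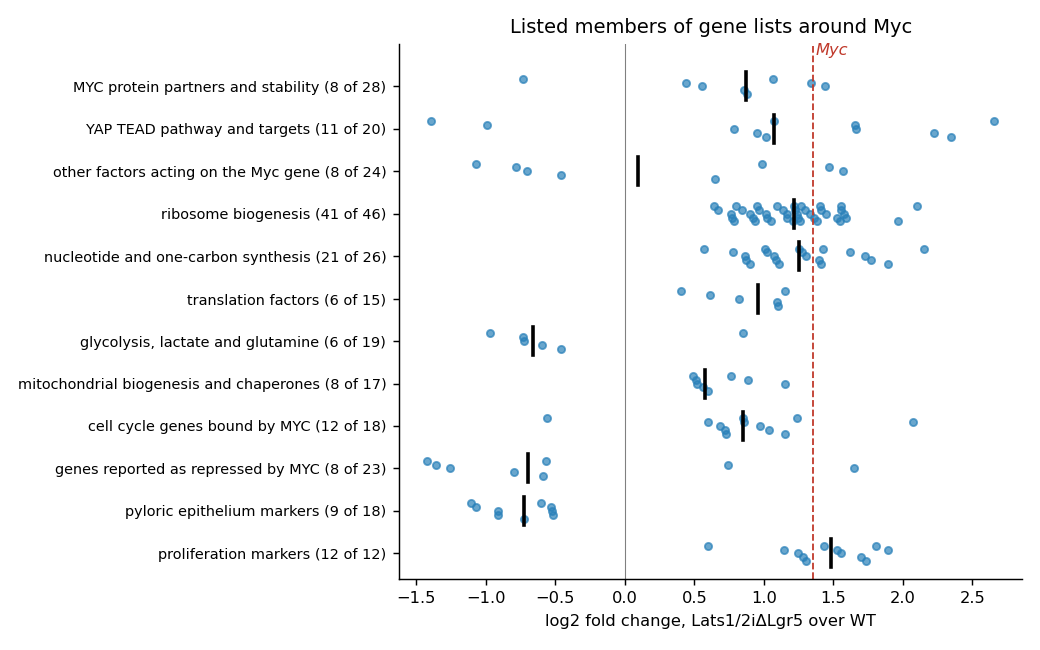
Log2 fold change (Lats1/2iΔLgr5 over WT, from edgeR) of each listed member of the lists with at least 5 rows; the counts in brackets are members listed of members on the list, the black bar is the median and the dashed line is Myc at 1.35. Ribosome biogenesis and nucleotide synthesis lie wholly above 0, while 5 of 6 glycolysis, lactate and glutamine genes lie below it.

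The order of the libraries differed between groups that all rose. In Myc the place of the WT libraries in that order is within counting error, so sharing it rests partly on an unresolved step. Of the 2701 listed genes, 465 besides Myc had its order, which with Myc is 17.3% of the table and 40.2% of the genes that rose. Among ribosome biogenesis genes 33 of 41 had it. All 12 proliferation markers were listed and higher (100%, against 20.6% of all genes tested listed and 8.81% listed and higher). Their median log2 fold change was 1.48, and none had the order of Myc. In each of these 12 WT 2 was above WT 1, whereas WT 1 was the higher in 34 of 41 ribosome biogenesis genes and in Myc. The helicase subunit gene Mcm7, for example, stood at 445 and 523 normalized counts in WT 1 and 2 and at 1621 and 1610 in Lats1/2iΔLgr5 1 and 2.

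The authors' call takes in the spread between libraries of a group, so ratios between the Lats1/2iΔLgr5 libraries are not independent of it. Lats1/2iΔLgr5 2 was above Lats1/2iΔLgr5 1 in 70.7% of the genes that rose, with a median ratio of 1.11. It was above in 40 of 41 ribosome biogenesis genes, with a median ratio of 1.36, and in 8 of 12 proliferation markers, with a median of 1.11. In nucleotide and one-carbon synthesis it was above in 16 of 21 genes, with a median of 1.09. A ratio at least as large as that of Myc, 1.51, was seen in 96 other genes that rose, which with Myc is 8.38% of them. Each ratio compares 1 library with another, so it has no replicate and no test. The summed normalized counts of the proliferation markers were 8107 and 12421 in WT 1 and 2 and 24546 and 27349 in Lats1/2iΔLgr5 1 and 2. Their part in the difference in Myc was not tested.

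**Figure D3:**
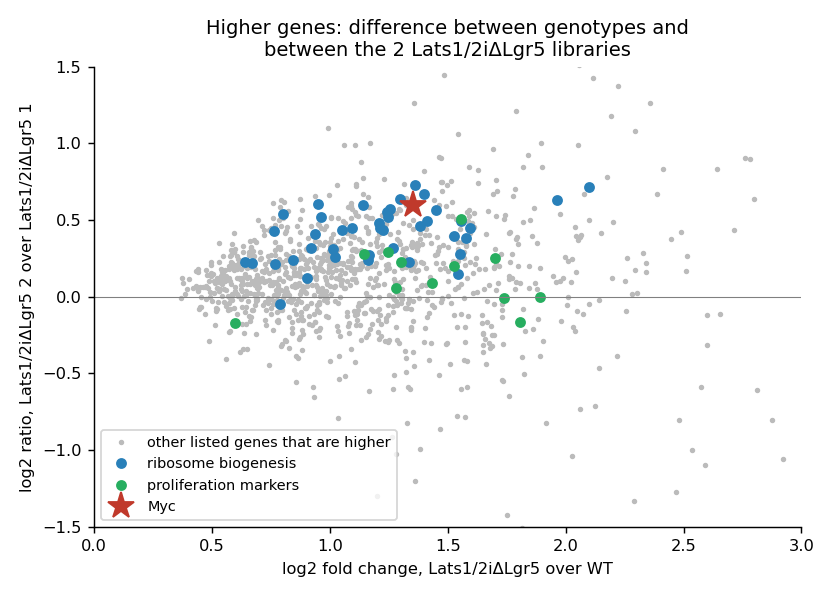
Each point is a listed gene that rose: the x axis is its log2 fold change (Lats1/2iΔLgr5 over WT) and the y axis the log2 ratio of Lats1/2iΔLgr5 2 over Lats1/2iΔLgr5 1, with 44 of 1158 genes beyond the axes. Myc (star) lies among the ribosome biogenesis genes, 40 of 41 of which are above 0, while proliferation markers lie on both sides of 0.

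The genes most like Myc were ranked by the root mean square difference between their profile and its own, each profile being log2(normalized count + 1) in the 4 libraries centred on its mean. Among 2488 listed genes with a base mean of at least 100 and a named model, the 10 nearest were Atad3a, Nle1, Dis3, Nol10, Rrp12, Heatr1, Gpatch4, Nolc1, Nop56 and Wdr4, with differences of 0.024 to 0.070. The median over all other genes that rose was 0.34. Atad3a, which encodes a mitochondrial inner membrane ATPase, was nearest, at 631 and 581 normalized counts in WT 1 and 2 and 1184 and 1847 in Lats1/2iΔLgr5 1 and 2. Its log2 fold change was 1.32 ± 0.25 (SE), and its ratio between the Lats1/2iΔLgr5 libraries 1.56.

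Rrp12, an export factor of ribosomal subunits, stood at 261 and 215 normalized counts in WT and at 484 and 772 in Lats1/2iΔLgr5. Heatr1, a small-subunit processome protein that supports rRNA transcription, stood at 419 and 352 in WT and at 823 and 1273 in Lats1/2iΔLgr5. Nop56, a core protein of snoRNA particles, stood at 750 and 625 in WT and at 1512 and 2242 in Lats1/2iΔLgr5; its gene hosts snoRNAs and overlaps Idh3b on the other strand. Each of the 3 has the stepped pattern of Myc, with WT 2 lowest and Lats1/2iΔLgr5 2 highest. Dis3 is the catalytic subunit of the nuclear exosome, Wdr4 a subunit of a tRNA methyltransferase, and Nol10 and Nolc1 encode nucleolar proteins. They had log2 fold changes of 1.24 to 1.38. The genes were ranked on these same values, so closeness to Myc in fold change and pattern comes largely with the choice.

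Of the 10 genes, 4 were on the ribosome biogenesis list (Nle1, Rrp12, Nolc1 and Nop56), and of the 22 genes within 0.1 of Myc 9 were on it. With 4 libraries this likeness describes these libraries, and the part of it that is the difference between genotypes was fixed by the authors' selection. The remaining part was selected by the ranking itself. It rests on all 4: of the 10 genes, 4 were still among the 10 nearest without WT replicate 1, 4 without WT replicate 2, 5 without Lats1/2iΔLgr5 replicate 1 and none without Lats1/2iΔLgr5 replicate 2.

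The nearest to the mirror image of Myc were Igsf10, Fer1l6, Ces1g, Bmp2 and Dio1, with differences of 0.030 to 0.069 from the profile with its sign turned. Bmp2, a ligand of the BMP pathway, stood at 2733 and 2849 normalized counts in WT 1 and 2 and at 1256 and 847 in Lats1/2iΔLgr5 1 and 2, a log2 fold change of -1.41 ± 0.22 (SE). Fer1l6, a ferlin family gene, stood at 11196 and 12490 in WT and at 5849 and 4156 in Lats1/2iΔLgr5. Ces1g, a carboxylesterase, and Dio1, a deiodinase of thyroid hormone, fell by 1.27 ± 0.27 and 1.29 ± 0.41, and with TMM factors the edgeR adjusted p was 0.0695 for Igsf10 and 0.0934 for Dio1.

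**Figure D4:**
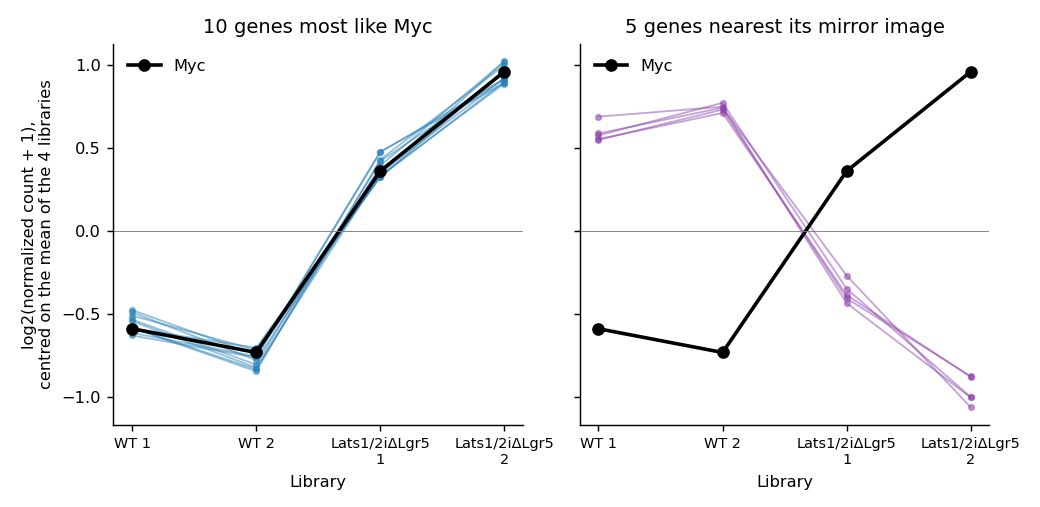
Log2(normalized count + 1) in the 4 libraries, centred on each gene's mean, for Myc (black), the 10 genes most like it (left, blue) and the 5 genes nearest its mirror image (right, purple). All 10 share its order of libraries, and the 5 fall from WT to Lats1/2iΔLgr5 1 and further to Lats1/2iΔLgr5 2. Both sets were chosen by the values drawn here.

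Around Myc on chromosome 15 the listed genes went both ways. Within 5 Mb of its start 7 other genes had rows, 2 higher and 5 lower, and over the whole chromosome 54 of 110 others were higher. Both counts are to be read beside the 42.9% of all listed genes that rose. Genes without a call have no row, so the rest of the locus is not described. Distances run between the lower coordinates of the gene models, whatever the strand. The nearest, Fam84b, lies 1.17 Mb away. It stood at 3962 and 3208 normalized counts in WT 1 and 2 and at 2406 and 2282 in Lats1/2iΔLgr5 1 and 2. Its log2 fold change was -0.61 ± 0.15 (SE), with an edgeR adjusted p of 0.200 with TMM factors. Fer1l6 (3.48 Mb) and Fam91a1 (3.57 Mb), a gene of vesicle trafficking, had log2 fold changes of -1.24 and -0.58, the latter with a TMM adjusted p of 0.153.

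Atad2, a bromodomain ATPase reported as a MYC cofactor, lies 3.89 Mb from Myc and rose 1.85-fold. Tbc1d31, a centrosomal protein gene 4.07 Mb away, stood at 54.3 and 81.6 normalized counts in WT and at 234 and 174 in Lats1/2iΔLgr5. Ndrg1 lies 4.94 Mb from Myc on the other side. Its model overlaps Gm2895 on the opposite strand, so their reads are separable only if strand was used in counting. Pvt1, the long non-coding RNA gene next to Myc, had no row.

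**Figure D5:**
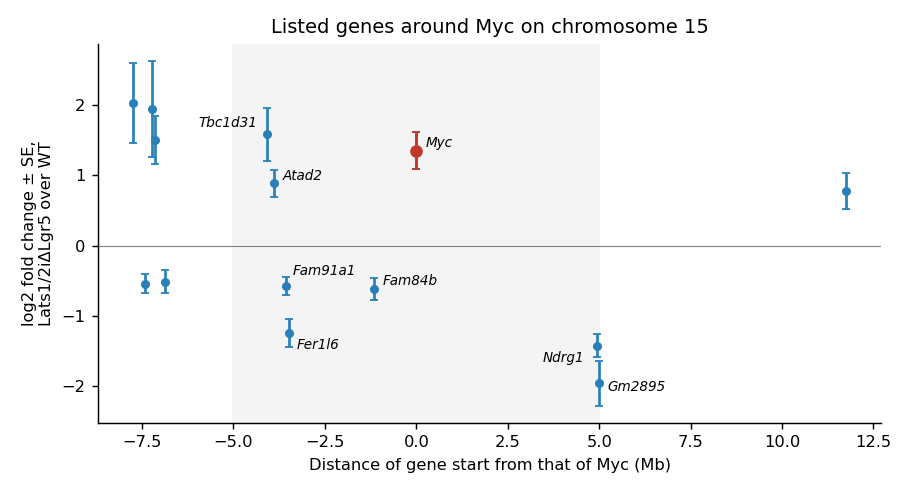
Log2 fold change (Lats1/2iΔLgr5 over WT) with its SE of 14 listed genes, Myc (red) included, against their distance from Myc, up to 12 Mb. Gene start on the axis means the lower coordinate, whatever the strand. The shaded band is 5 Mb on each side. Within the band 2 genes besides Myc lie above 0 and 5 below.

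Of markers of other cells, none of 8 smooth muscle, 1 of 16 immune, 1 of 6 endothelial (16.7%) and 3 of 8 fibroblast markers (37.5%) were listed, against 20.6% of all genes tested. The fibroblast collagen genes Col3a1 and Col1a2 fell by 0.75 ± 0.18 and 0.78 ± 0.20 (SE) on the log2 scale, and the 3 fibroblast markers together stood at 10068 and 13681 normalized counts in WT and 7414 and 6332 in Lats1/2iΔLgr5. With TMM factors the edgeR adjusted p was 0.0752 for Col3a1 and 0.0807 for Col1a2, and without WT replicate 2 the value of Col1a2 was -0.51. Cd14, a myeloid receptor gene, rose 2.42-fold. Of 12 pancreas markers, Cela1, an elastase gene, rose 1.97-fold and shared the order of Myc. Cela2a stood at 6.31 and 215 in WT 1 and 2 and at 3.62 and 0.782 in Lats1/2iΔLgr5 1 and 2, so its listed fall rests on WT 2. The part of these markers in the difference in Myc was not tested.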

How the data were processed

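Per the labels' protocols, libraries were strand-marked and made from poly(A) RNA. TopHat2 2.1.1, HTSeq, DESeq2 and GRCm38 were used, per the submitters' processing notes, which state no settings here. The deposited table holds raw counts per gene and library. Per the file headers it also holds the authors' base mean (a signal, the mean normalized count), log2 fold change with standard error, Wald statistic (a score), p-value and adjusted p-value.

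Deposited base means and counts gave back the size factors (0.792 and 0.907 for WT 1 and 2, 1.10 and 1.28 for Lats1/2iΔLgr5 1 and 2), to within 0.0119%. The main test was edgeR 4.0.16 (quasi-likelihood, genotype only, filterByExpr, Benjamini-Hochberg at 0.05) on these factors. TMM computed from a list of called genes can shift every fold change, so it served as an alternative. The edgeR test was tried on simulated data. GENCODE M21 gave symbols (2698 genes), exon lengths and overlaps; 1 was added to deposited starts, 2214 of which lie 1 below GENCODE's. Libraries of a group were not duplicates (chi-square per degree of freedom, 114 for WT and 108 for Lats1/2iΔLgr5).

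Myc, the 20 lists and the naming rule were chosen with earlier results of these data known, so list counts are descriptions and no list was tested. Named are Myc, listed MYC network genes, up to 4 listed members per list with the smallest deposited adjusted p, the 10 genes most like Myc, the 5 nearest its mirror image, up to 6 neighbours within 5 Mb and the 2 adjacent in base mean. Alternatives covered scaling, filter, tool, block, pseudocount and each library left out.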

Additional observations from a re-analysis of the deposited data

How the results depend on the processing

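The log2 fold change of Myc stayed positive under every alternative run. It was 1.71 with TMM factors, 1.76 with DESeq2 1.42.0 size factors of the listed genes, 1.35 without a count filter and with the DESeq2 Wald test, and 1.32 with the replicate number as a block. It ranged from 1.02 to 1.62 without 1 library in turn. The edgeR adjusted p passed the threshold in each of these except without Lats1/2iΔLgr5 replicate 2 (0.0715). The number of listed genes called higher was 1157, and called lower 1541; with TMM factors 494 were lower (70.1% of calls higher in place of 42.9%), and with DESeq2 factors 432 (72.8%). TMM moved the median log2 fold change by 0.36 and DESeq2 factors by 0.41. Both sets of factors were computed from called genes alone, and the cause of the shift was not tested. Without 1 library in turn, 4 to 1038 genes were called higher and 1 to 1416 lower, fewest without Lats1/2iΔLgr5 replicate 2, and 627 and 876 without Lats1/2iΔLgr5 replicate 1. Genes in the order of Myc numbered 465, with TMM factors 553 and with DESeq2 factors 598. Over 3 libraries, where fewer orders are possible, they numbered 653 to 818. The 10 genes most like Myc changed by at most 1 with a pseudocount of 0.5 or 5, a base mean of at least 20 or TMM factors (the last chosen after seeing the data), but 0 to 5 of them remained when a library was left out. Of the 83 other genes chosen by the naming rule, all missed the threshold without Lats1/2iΔLgr5 replicate 2, 18 without Lats1/2iΔLgr5 replicate 1, 7 without WT replicate 2, 1 without WT replicate 1, 15 with TMM factors, 16 with DESeq2 factors and 1 under the block, and none changed direction in any fit; Cela2a was judged without the count filter, which removed it. Deviations of same-numbered libraries of the 2 groups had only a weak inverse correlation (r = -0.162 across genes, which are not independent). The labels give the numbers no shared source. The block gave 1084 higher and 1451 lower calls, and the crossed pairing, chosen after seeing the data, 1142 and 1518. All listed genes were selected for significance and each group has 2 libraries, which limits every p here.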
